A study of Rattus norvegicus with 300 samples.

Results

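The cingulate cortex of rats that drank maltodextrin was compared with that of rats that drank plain water. The labels abbreviate the tissue as CGC without spelling it out, and in rat brain work these letters commonly stand for cingulate cortex. Of the 300 libraries in the series, 10 were used for the comparison, because their labels give the region CGC with the treatment Maltodextrin (5 libraries) or Control (5 libraries). All animals were male Long Evans rats, an outbred strain, and were 60 days old. Both groups took their treatment in the drinking water for 3 weeks. Maltodextrin was given at 10 g/L, and the Control group received water. The other 20 CGC libraries, of the groups Probiotics, Bupropion, Desipramine and FT, entered the same model. They took part in the estimate of the spread between replicates, the choice of genes tested and the scaling between libraries. Tissue of all groups was punched from frozen sections 250 µm thick and pooled by region before extraction. The sources used here do not state how many rats went into a pool, and the p-values therefore cover the spread among these libraries alone. The labels name no batch, so any batch in step with the groups cannot be told apart from the treatment.

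Maltodextrin is a short polymer of glucose that the gut splits into free glucose, and it is a common carrier for freeze-dried probiotic bacteria. In the series it is labelled as a control, and the comparison with water asks how the carrier group itself differed from water. The cingulate cortex is a midline cortical area whose pyramidal neurons release glutamate and are held in check by GABA-releasing interneurons. Its neurons cover most of their energy need by oxidising glucose, through glycolysis and the mitochondrial respiratory chain, and astrocytes take up glutamate and pass on lactate. Glucose and insulin act on neurons through the insulin receptor, its substrate proteins, the kinase AKT and the energy sensor AMPK.

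Total counts ran from 9745762 to 13509290 in the Control libraries and from 6830811 to 8087261 in the Maltodextrin libraries, so depth separated the groups. The 50 most counted genes took 19.3 to 22.2% of all counts in Control and 14.4 to 17.8% in Maltodextrin. The TMM scaling factor, which corrects for such differences in composition, was 0.902 to 0.974 in Control and 1.05 to 1.15 in Maltodextrin. Levels below are CPM, counts per 1000000 after TMM scaling, given as mean ± SD with n = 5 libraries per group unless single libraries are listed. Markers of cortex were present in both groups. Neurod6 and Tbr1, transcription factors of cortical excitatory neurons, stood at 172 ± 8.2 and 12.3 ± 2.3 CPM in Maltodextrin and at 168 ± 5.69 and 14.1 ± 1.94 CPM in Control. Prox1 of hippocampal granule cells, Avp of the hypothalamus, and Kl and Folr1 of choroid plexus had group means of 4.77 CPM or less in both groups. Striatal Drd1 stood at 8.05 ± 0.347 CPM in Maltodextrin and 5.86 ± 0.742 CPM in Control. In bulk tissue, fewer cells of a type and less RNA per cell cannot be told apart.

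Maltodextrin and Control differed for a large share of genes, mostly by small amounts. Of 11873 genes tested, 5436 (45.8%) were called at an adjusted p under 0.05 by edgeR (quasi-likelihood test, p-values adjusted by Benjamini-Hochberg over all genes tested). Of these, 2775 (23.4%) were higher and 2661 (22.4%) lower in Maltodextrin. Their median absolute log2 change was 0.39. Changes of more than 1.5-fold were seen in 495 called genes that rose (4.17% of those tested) and in 531 that fell (4.47%), and 77 and 47 passed 2-fold. The libraries of the groups did not overlap for 3957 of the called genes (72.8%), against 4163 of all genes tested (35.1%). When the test asked for a change over 1.2-fold, 1855 genes were called, 904 higher and 951 lower.

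**Figure D1:**
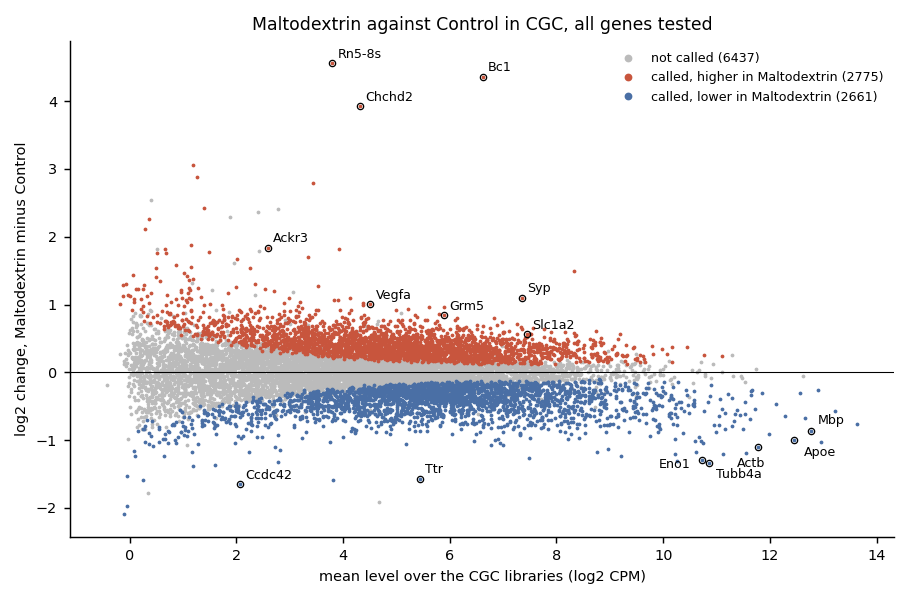
Log2 change of every gene tested (vertical axis) against its mean level over the CGC libraries in log2 CPM (horizontal axis). Red points were called higher in Maltodextrin (2775 genes), blue points lower (2661), and grey points were not called; circles mark 15 genes, with Rn5-8s, Bc1 and Chchd2 highest and Ttr and Ccdc42 lowest among those circled.

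The direction of the changes and the share of genes called went with the level of the genes. Among the 10% of tested genes with the highest mean level, 47.7% fell and 21.0% rose, with a median log2 change of -0.14. In the lowest 10%, 4.71% fell and 9.68% rose, with a median of 0.06. Depth, the share of the 50 most counted genes and the scaling factor moved with the groups, and their part in these results was not tested. Over all genes tested the median log2 change was 0.01, and it was 0.03 or less under each of 3 other scalings. One of these, cyclic loess, removes trends with level. Among the genes followed through all settings, 23 calls in CGC moved by more than 1.5 times under it, 19 of them towards 0. These values stand beside the genes described. Other genes described, such as Apoe, Aldoa, Gapdh and Cox4i1, were not among those followed. For them the absence of a cyclic loess value does not mean that the change held under it.

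Ttr carried one of the largest decreases. It encodes transthyretin, a carrier of thyroid hormone that choroid plexus makes in bulk. In the Control libraries Ttr stood at 89.4, 82.2, 84.8, 84.5 and 94.6 CPM. In the Maltodextrin libraries it stood at 49.4, 24.9, 28.8, 20.2 and 24.2 CPM. No Maltodextrin library reached the lowest Control library, and replicate 1 was the highest of its group. Its log2 change was -1.57 (SE 0.16, edgeR adjusted p = 2.01e-08). Other genes of the choroid plexus and ependyma list fell less: of 8 tested members, 3 fell and none rose, with Calml4 at -0.58 and Enkur at -0.25. The share that fell was 37.5%, against 22.4% of all genes tested. The Calml4 call ended without Maltodextrin replicate 5 (-0.47, edgeR adjusted p = 0.0605). The summed level of the list ran from 201 to 222 CPM in Control and from 128 to 151 CPM in Maltodextrin, while its defining members Kl and Folr1 had means of 0.149 and 0.141 CPM in Maltodextrin and 0.325 and 0.42 CPM in Control.

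Abundant genes were among the decreases with the largest size or the smallest p. Tubb4a, a beta-tubulin of neurons and oligodendrocytes, stood at 1912, 1963, 1826, 1684 and 1885 CPM in Control. Its Maltodextrin libraries held 740, 663, 613, 833 and 815 CPM. The groups were far apart, and the log2 change was -1.34 (SE 0.11, edgeR adjusted p = 7.4e-11). Actb, the cytoplasmic actin often used as a reference gene, fell from 5471 ± 640 to 2557 ± 278 CPM, a log2 change of -1.10 (-0.69 under cyclic loess scaling), and was looked at after its values were seen. Ap2m1, a subunit of the adaptor complex that loads cargo into clathrin-coated vesicles, had the smallest p of all decreases. Its Control libraries lay between 2014 and 2407 CPM and its Maltodextrin libraries between 897 and 1069 CPM (log2 change -1.18, SE 0.074, edgeR adjusted p = 1.43e-14). Gng3, a G protein gamma subunit of neurons, and Prnp, the prion protein, had log2 changes of -0.88 and -0.78, the latter -0.43 under cyclic loess scaling. Ctxn1, a small membrane protein of cortex, fell by 1.21 on the log2 scale and Mlf2 by 1.24. None of these 7 genes overlapped between the groups.

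Weakly counted genes were among the other large decreases. Ccdc42, a coiled-coil protein known from sperm tails, stood at 5.61, 5.58, 4.29, 7.27 and 5.29 CPM in Control and at 1.24, 1.59, 2.64, 2.02 and 1.29 CPM in Maltodextrin. Every Maltodextrin library lay below every Control library, at a log2 change of -1.65 (SE 0.23, edgeR adjusted p = 3.11e-07). Tmem259, also called membralin, was at 17.2 CPM on average in Control and 5.63 CPM in Maltodextrin (log2 change -1.58). Zfp575, a zinc finger protein, was at -1.32. Morn5, which was not weakly counted, fell from between 159 and 352 to between 65.1 and 179 CPM (log2 change -1.26, edgeR adjusted p = 0.00508), with overlapping groups. Oxt, the oxytocin precursor, was at 2.43 ± 1.48 CPM in Control and 0.945 ± 0.611 CPM in Maltodextrin. Its log2 change of -1.37 (edgeR adjusted p = 0.0242) lost its call without Control replicate 5 (-0.95, adjusted p = 0.117), Maltodextrin replicate 2 (-1.19, adjusted p = 0.0653) or Maltodextrin replicate 5 (-1.20, adjusted p = 0.0653).

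The glycolysis list held more decreases than increases. Of 30 tested genes of glycolysis, glycogen handling and glucose or lactate transport, 16 fell (53.3%), 3 rose and 11 were not called. Over all genes tested 22.4% fell, and 47.7% of the 10% with the highest level. The median log2 change of the list was -0.23 against 0.01 over all genes. The list is abundant (25240 to 30370 CPM summed in Control), and under cyclic loess scaling 14 members fell and 3 rose, with a median of -0.18. Eno1, the enolase that makes phosphoenolpyruvate, stood at 2933, 3035, 2594, 2401 and 2283 CPM in the Control libraries. It stood at 1090, 1048, 890, 1210 and 1145 CPM in the Maltodextrin libraries. All 5 Maltodextrin libraries lay far below the lowest Control library, and the log2 change was -1.30 (SE 0.15, edgeR adjusted p = 1.01e-07). Pkm, the pyruvate kinase of the last step, was at 2687, 2573, 2305, 2194 and 2207 CPM in Control and at 1144, 1152, 1156, 1265 and 1213 CPM in Maltodextrin. The groups did not overlap, and its log2 change was -1.01. Ldhb and Ldha, the subunits of lactate dehydrogenase, were at -0.88 and -0.67, Aldoa, the aldolase of muscle and brain, at -0.91, and Gapdh at -0.47. Along the pathway, Hk1 (-0.36), Gpi (-0.51), Pfkl (-0.69), Pfkp (-0.43), Pfkm (-0.43), Pgk1 (-0.50) and Pgam1 (-0.61) also fell. Under cyclic loess scaling Ldhb, Pgk1 and Pgam1 were at -0.54, -0.24 and -0.33. Among the members not called were Eno2, Tpi1 and Hk2. The members that rose were Pfkfb2, which makes the activator of phosphofructokinase (0.53), the inositol transporter Slc2a13 (0.44) and the monocarboxylate transporter Slc16a7 (0.24). Slc2a1, the glucose transporter of the blood-brain barrier, was not called, with 83.3 ± 10.1 CPM in Maltodextrin against 87.1 ± 2.39 CPM in Control.

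Nuclear genes of the respiratory chain went the same way by count. Of 40 tested members, 25 fell (62.5%), 3 rose (7.5%) and 12 were not called, at a median log2 change of -0.31. Shares over all genes tested were 22.4% lower and 23.4% higher, and 47.7% fell among the 10% with the highest level. Ndufb8 of complex I stood at 591, 642, 692, 633 and 578 CPM in Control and at 376, 338, 277, 414 and 433 CPM in Maltodextrin. No libraries overlapped, and its log2 change was -0.77 (SE 0.092, edgeR adjusted p = 5.87e-08). Subunits of each complex were among the decreases, such as Sdhb of complex II (-0.57), Uqcrc1 of complex III (-0.69), Cox4i1 of complex IV (-0.65) and Atp5b of the ATP synthase (-0.38). Sdhd of complex II and the small subunits Cox6c and Cox7a2 of complex IV rose by 0.35, 0.25 and 0.24. The list is abundant, and under cyclic loess scaling 17 members fell and 10 rose, with a median of -0.09.

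Genes of protein turnover and folding held more decreases than increases. Of 31 proteasome subunits, 17 fell (54.8%), 2 rose (6.45%) and 12 were not called, with a median of -0.24, or -0.11 under cyclic loess scaling. Shares over all genes tested were 22.4% lower and 23.4% higher, and 47.7% fell among the 10% with the highest level. Psmc5, an ATPase of the regulatory particle, stood at 1362, 1407, 1213, 1223 and 1182 CPM in Control and at 739, 871, 761, 878 and 829 CPM in Maltodextrin. The groups were separate, at a log2 change of -0.65 (SE 0.061, edgeR adjusted p = 1.09e-10) or -0.38 under cyclic loess scaling, and Psmd4, a ubiquitin receptor of the proteasome, was at -0.65 as well. Among 33 tested genes of the heat shock and unfolded protein responses, 13 fell (39.4%), 4 rose (12.1%) and 16 were not called (median -0.14). Under cyclic loess scaling the split was 10 against 7, at a median of -0.03. Hspa8, the constitutive chaperone HSC70, fell from 4016 ± 346 to 2615 ± 172 CPM (log2 change -0.62, or -0.23 under cyclic loess scaling). Ddit3, the stress transcription factor CHOP, and Pdia6, a disulfide isomerase, were at -0.57 and -0.55, while Hsf1, the main heat shock factor, rose by 0.57.

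Genes that respond to glucose or carry the insulin signal showed more increases than decreases. Of 32 tested members, 13 rose (40.6%), 5 fell (15.6%) and 14 were not called, with a median log2 change of 0.17. Shares over all genes tested were 23.4% higher and 22.4% lower. Prkaa1, the catalytic subunit alpha-1 of AMPK, stood at 14.3, 15.6, 13.1, 13.6 and 14.4 CPM in Control. In Maltodextrin it was at 21.2, 25.5, 29.7, 23.8 and 24.8 CPM. Each Maltodextrin library lay above each Control library, and the log2 change was 0.82 (SE 0.095, edgeR adjusted p = 9.05e-09). Irs2, a docking protein of the insulin receptor, was at 29.6, 21.9, 29.4, 27.7 and 31.5 CPM in Control and at 41.0, 44.2, 41.4, 39.5 and 38.4 CPM in Maltodextrin. It rose by 0.54 on the log2 scale (SE 0.086, edgeR adjusted p = 2.76e-06) with no overlap. The insulin receptor Insr (0.40), the kinase Rps6kb1 (0.40) and the transcription factor Foxo1 (0.58) rose. Akt1 (-0.48), the translation repressor Eif4ebp1 (-0.48), the regulatory subunit Pik3r2 (-0.39) and the receptor Igf1r (-0.24) fell. Txnip, a gene that glucose is known to induce, was not called: its libraries ran from 14.9 to 19.5 CPM in Control and from 19.1 to 22.5 CPM in Maltodextrin, at a log2 change of 0.19 (edgeR adjusted p = 0.0919).

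**Figure D2:**
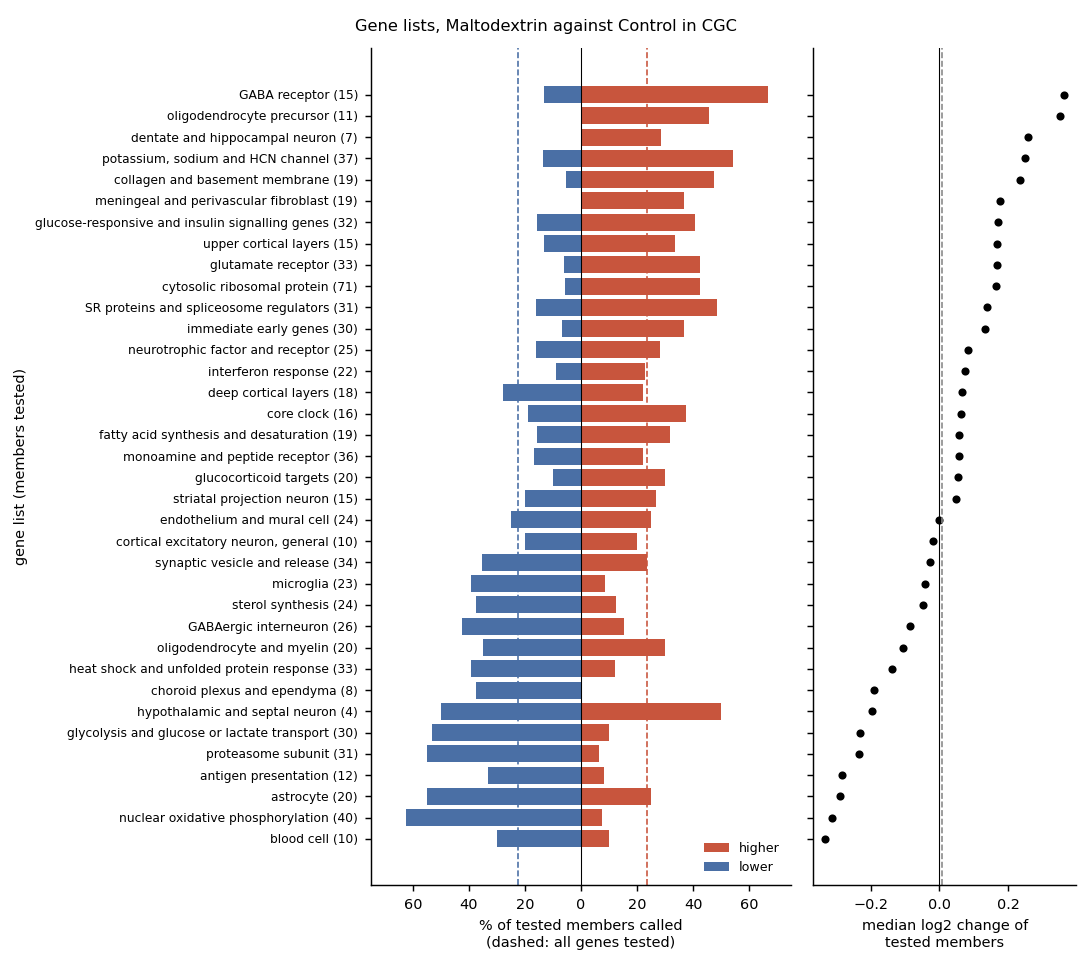
Share of the tested members of each of 36 gene lists that were called higher (red, to the right) or lower (blue, to the left), with the shares over all genes tested as dashed lines (23.4% and 22.4%), and at right the median log2 change of the members. The GABA receptor list has the highest median (0.36) and the blood cell list the lowest (-0.33). Nuclear oxidative phosphorylation has the largest share of members that fell (62.5%).

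Receptor genes of glutamate and GABA, listed with some of their partner proteins, held more increases than decreases. Of 33 tested genes of the glutamate receptor list, which includes scaffold and auxiliary proteins, 14 rose, 2 fell and 17 were not called (median 0.17). Of 15 genes of the GABA receptor list, which includes the scaffold Gphn, 10 rose, 2 fell and 3 were not called (median 0.36). The shares that rose were 42.4% and 66.7% and those that fell 6.06% and 13.3%, against 23.4% and 22.4% of all genes tested. Grm5, the metabotropic glutamate receptor mGluR5, had the smallest p of all increases. Its Control libraries stood at 43.1, 45.6, 46.6, 48.0 and 46.0 CPM and its Maltodextrin libraries at 85.8, 82.9, 85.8, 77.5 and 80.0 CPM. The groups lay far apart with little spread inside each, at a log2 change of 0.85 (SE 0.062, edgeR adjusted p = 3.15e-13). Gria4, an AMPA receptor subunit, was at 118, 126, 141, 130 and 125 CPM in Control and at 196, 194, 213, 202 and 196 CPM in Maltodextrin (log2 change 0.65). The NMDA receptor subunits Grin2a, Grin2b and Grin3a rose by 0.39, 0.25 and 0.48, and Shank1, a scaffold of the postsynaptic density, by 0.33. The Shank1 call was lost without Control replicate 1, 2 or 5 or Maltodextrin replicate 1, 3, 4 or 5 (edgeR adjusted p from 0.0558 to 0.0988), and with no filter (adjusted p = 0.0698). Both members that fell, Cacng3 (-0.52) and Cacng2 (-0.40), encode auxiliary subunits that bring AMPA receptors to the synapse.

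Among GABA receptor genes, Gabrg1, the gamma-1 subunit of GABA-A receptors, stood at 24.7, 22.6, 25.3, 27.4 and 25.8 CPM in Control and at 43.4, 39.5, 47.6, 40.7 and 35.1 CPM in Maltodextrin. The groups did not overlap, and the log2 change was 0.71 (SE 0.091, edgeR adjusted p = 6.34e-08). The subunits Gabra2 and Gabrb2 rose by 0.58 and 0.37. Gabrd, a subunit of receptors outside the synapse, went down: it was at 99.7, 102, 92.4, 95.2 and 84.8 CPM in Control and at 69.8, 69.4, 59.0, 68.0 and 66.2 CPM in Maltodextrin, a log2 change of -0.51. Gabra3 was at -0.28.

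Voltage-gated and related channels followed the receptors by count, with 20 of 37 tested potassium, sodium and HCN channel genes higher and 5 lower (median 0.25). These shares, 54.1% and 13.5%, stand beside 23.4% and 22.4% of all genes tested. Kcnc2 and Kcnq3, potassium channels of fast-spiking and of most cortical neurons, rose by 0.50 and 0.40. Hcn2, a pacemaker channel, rose from 18.2 ± 2.16 to 29.1 ± 6.31 CPM (log2 change 0.68), and the sodium channels Scn1a, Scn2a and Scn8a by 0.49, 0.29 and 0.40. Kcnc4 fell from between 65.0 and 69.3 to between 36.6 and 44.7 CPM, at a log2 change of -0.71 (SE 0.09, edgeR adjusted p = 6.78e-08). Kcnn1, a calcium-activated potassium channel, was at -0.75. Among 36 tested monoamine and peptide receptors, 8 rose (22.2%, near the share of all genes tested) and 6 fell (16.7%), with a median of 0.06. The serotonin receptors were split, with Htr2c and Htr2a at 0.51 each and Htr1a at -0.74. Cnr1, the cannabinoid receptor of neurons, and Chrm3, a muscarinic receptor, rose by 0.34 each, and Drd1 by 0.45.

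Proteins of the presynaptic terminal moved in both directions. Of 34 tested synaptic vesicle and release genes, 12 fell and 8 rose (median -0.03), and under cyclic loess scaling 11 fell and 12 rose (median 0.07). Under TMM scaling 35.3% fell and 23.5% rose, against 22.4% and 23.4% of all genes tested. Vamp2, the vesicle SNARE, stood at 2187, 2493, 2244, 2108 and 2041 CPM in Control and at 1337, 1332, 1060, 1394 and 1319 CPM in Maltodextrin. Its groups were separate, and the log2 change was -0.78 (SE 0.065, edgeR adjusted p = 6.83e-12), or -0.43 under cyclic loess scaling. Sncb, beta-synuclein, fell from 1621 ± 121 to 656 ± 115 CPM, a log2 change of -1.31, and Rab3a, a GTPase of vesicle docking, by 0.96. Syn1 (-0.34 under cyclic loess scaling) and the target SNARE Stx1a were at -0.55 and -0.96. Syp, the vesicle protein synaptophysin, went the other way: it was at 98.3, 98.4, 120, 103 and 98.4 CPM in Control and at 204, 231, 228, 202 and 245 CPM in Maltodextrin. Its log2 change was 1.10 (SE 0.16, edgeR adjusted p = 5.46e-06). The active-zone genes Unc13b, Unc13a, Rims2 and Pclo rose by 0.55, 0.30, 0.47 and 0.28.

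Several genes that neuronal activity induces were higher. Of 30 tested immediate early genes, 11 rose (36.7%), 2 fell (6.67%) and 17 were not called, with a median log2 change of 0.13. Shares over all genes tested were 23.4% higher and 22.4% lower. Npas4, a transcription factor induced by calcium entry, stood at 9.94, 11.4, 8.69, 11.2 and 10.3 CPM in Control and at 18.04, 15.2, 15.6, 21.4 and 22.2 CPM in Maltodextrin. No library overlapped, and the log2 change was 0.84 (SE 0.12, edgeR adjusted p = 8.04e-07). Arc, which encodes a synaptic protein whose mRNA travels to dendrites, was at 33.8, 31.5, 36.2, 35.0 and 38.4 CPM in Control and at 58.5, 44.7, 44.0, 55.9 and 59.4 CPM in Maltodextrin. It rose by 0.58 (SE 0.092, edgeR adjusted p = 2.79e-06), also without overlap. Fos, the best known member, overlapped between the groups, with 15.4 to 19.9 CPM in Control and 17.8 to 24.2 CPM in Maltodextrin. The Fos log2 change of 0.29 (edgeR adjusted p = 0.0195) was no longer called without Control replicate 4 or Maltodextrin replicate 4 or 5 (adjusted p from 0.0544 to 0.063). Ptgs2, Nr4a3, Egr4 and Fosb rose by 0.73, 0.59, 0.58 and 0.48. Nptx2, a secreted pentraxin that gathers AMPA receptors, fell from 41.6 ± 3.68 to 22.3 ± 1.92 CPM, at a log2 change of -0.91 (SE 0.11, edgeR adjusted p = 3.79e-08). Egr3 was at -0.56 (edgeR adjusted p = 0.0216), a call that ended without Control replicate 3 or Maltodextrin replicate 2 or 3 (adjusted p from 0.0555 to 0.0664).

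The neurotrophic list held 7 members that rose and 4 that fell among 25 tested (median 0.08). These shares, 28% and 16%, stand beside 23.4% and 22.4% of all genes tested. Vegfa, the vascular growth factor, stood at 13.0, 19.0, 16.3, 16.8 and 14.2 CPM in Control and at 33.3, 34.8, 28.9, 29.6 and 31.8 CPM in Maltodextrin. All Maltodextrin libraries were above all Control libraries, and its log2 change was 1.00 (SE 0.12, edgeR adjusted p = 1.04e-08). Ntrk2, the receptor of BDNF, rose by 0.35 (0.58 under cyclic loess scaling) and the neuregulin receptor Erbb4 by 0.69. Bdnf itself was not called, with 85.01 ± 6.69 CPM in Maltodextrin against 80.6 ± 2.86 CPM in Control (log2 change 0.08, SE 0.063, edgeR adjusted p = 0.322). Vgf, a secreted neuropeptide precursor, rose by 0.31.

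The cAMP response element, TGACGTCA, is the site bound by CREB, through which calcium and cAMP switch on many of these genes. Of 39 called members of the immediate early, interneuron and neurotrophic lists, 24 had a promoter in the RefSeq sequences of build GRCr8, which cover 250 bases before the annotated start and 50 after it. The element, read on both strands, which is the same because it is a palindrome, was found in 3 of them, 2 higher and 1 lower in Maltodextrin. They are shown because the same letters stood beside genes that changed in opposite directions. Capitals mark the element, and sequences run 5′ to 3′ along the gene.
Btg2: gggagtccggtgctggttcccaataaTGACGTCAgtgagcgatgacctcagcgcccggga
Vgf: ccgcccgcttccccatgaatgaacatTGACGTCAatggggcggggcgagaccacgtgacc
Sst: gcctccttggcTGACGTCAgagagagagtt
The stretch of Btg2, an early response gene that slows cell division (log2 change 0.23), lies on chr13:48087858-48087917, minus strand, with the element starting 201 bases before the start. That of Vgf lies on chr12:25277077-25277136, minus strand, with the element starting 90 bases before the start. In Sst (log2 change -0.71), on chr11:90461537-90461566, plus strand, the element starts at base 3 after the annotated start. Of all 9588 tested genes with a promoter sequence, 3.23% held the element, 3.39% of those that rose, 3.95% of those that fell and 2.87% of those not called. Such a match is a description of letters and does not show binding.

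Neuronal identity genes did not shift as one. Of 10 tested general markers of cortical excitatory neurons, 2 rose (20%), 2 fell (20%) and 6 were not called. Shares over all genes tested were 23.4% higher and 22.4% lower. Slc17a7, the vesicular glutamate transporter VGLUT1, stood at 576, 558, 561, 528 and 526 CPM in Control and at 405, 352, 378, 387 and 396 CPM in Maltodextrin. The groups did not overlap, at a log2 change of -0.52 (SE 0.08, edgeR adjusted p = 2.64e-06), or -0.34 under cyclic loess scaling. Slc17a6, the related transporter VGLUT2, was at 17.0, 18.1, 16.6, 16.2 and 18.2 CPM in Control and at 28.8, 23.6, 24.5, 22.0 and 24.7 CPM in Maltodextrin, and rose by 0.52. Of 15 upper-layer genes 5 rose (33.3%) and 2 fell (13.3%), with a median of 0.17, or 5 and 1 under cyclic loess scaling. Of 18 deep-layer genes 4 rose (22.2%) and 5 fell (27.8%), with a median of 0.07. Rorb, a nuclear receptor of layer 4, rose from 15.1 ± 1.59 to 26.2 ± 2.73 CPM (log2 change 0.80, SE 0.11, edgeR adjusted p = 1.16e-07). Tle4, a corepressor of layer 6, rose by 0.40, whereas Crym and Pcp4, genes of layers 5 and 6, were at -0.51 and -0.38. Pcp4 was at -0.16 under cyclic loess scaling. Lamp5, a membrane protein of upper layers and of some interneurons, was at -0.25, a call that ended under cyclic loess scaling (-0.07, edgeR adjusted p = 0.225).

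The interneuron list held more decreases than increases. Of 26 tested members, 11 fell (42.3%), 4 rose (15.4%) and 11 were not called, at a median log2 change of -0.09. Shares over all genes tested were 22.4% lower and 23.4% higher. Sst, the precursor of somatostatin, stood at 324, 340, 370, 335 and 316 CPM in Control and at 237, 192, 143, 215 and 242 CPM in Maltodextrin. Maltodextrin replicate 3 was lowest, and every Maltodextrin library lay below the Control libraries (log2 change -0.71, SE 0.11, edgeR adjusted p = 6.27e-06). Pvalb, the calcium buffer of fast-spiking basket cells, fell from 385 ± 13.8 to 289 ± 21.8 CPM, a log2 change of -0.42. Cck (-0.83), Calb2 (-0.50), Cort (-0.40), Crh (-0.35) and Vip (-0.16) also fell, while the peptide genes Npy (-0.45, edgeR adjusted p = 0.254) and Tac1 (-0.02, adjusted p = 0.833) were not called. Pvalb and Cck were at -0.27 and -0.50 under cyclic loess scaling. The enzymes that make GABA differed in sign, with Gad2 at -0.25 and Gad1 at 0.14. The Gad1 call (edgeR adjusted p = 0.0371) was lost without Control replicate 3 or 5 or Maltodextrin replicate 1, 2 or 5 (adjusted p from 0.0529 to 0.0964) and with no filter (adjusted p = 0.0733), whereas its change was 0.23 under cyclic loess scaling. Kcnc2 and Reln rose by 0.50 and 0.31. The summed level of the list was 4571 to 5401 CPM in Control and 3034 to 3901 CPM in Maltodextrin.

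**Figure D3:**
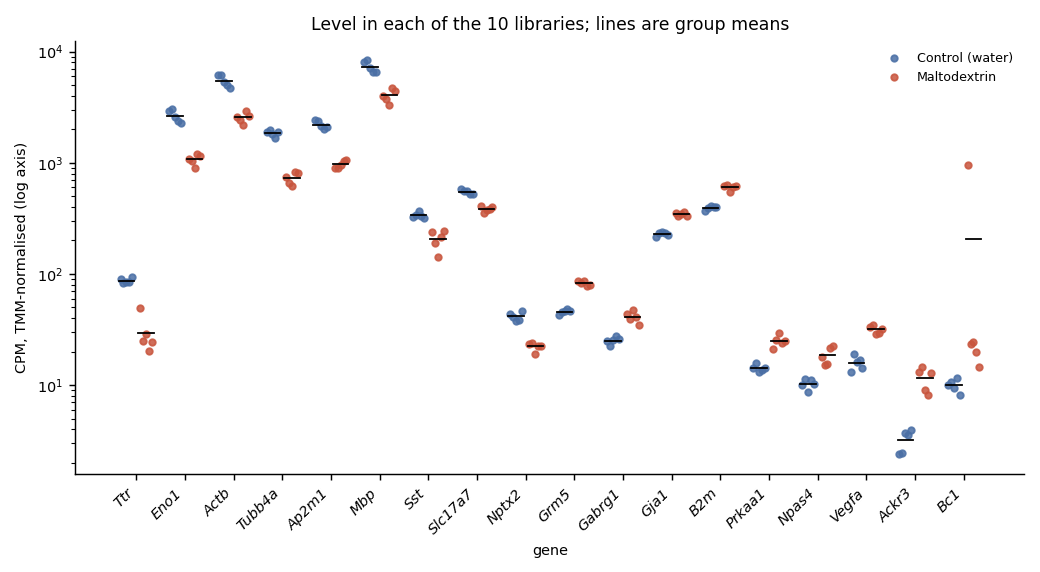
Level of 18 genes in each library (points) and the group mean (black lines), in TMM-normalised CPM on a log axis, with Control in blue and Maltodextrin in red. The 10 libraries of each gene separate by group, and Bc1 shows 1 Maltodextrin library at 947 CPM far above the other 4.

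Astrocyte genes moved in both directions. Of 20 tested members, 11 fell (55%), 5 rose (25%) and 4 were not called, with a median of -0.29 (-0.11 under cyclic loess scaling). Shares over all genes tested were 22.4% lower and 23.4% higher, and 47.7% fell among the 10% with the highest level. The summed level of the list was 19250 to 22650 CPM in Control and 12920 to 15480 CPM in Maltodextrin. Apoe, the lipid carrier apolipoprotein E, fell from 7945 ± 658 to 3978 ± 572 CPM (log2 change -0.998, SE 0.17, edgeR adjusted p = 3.49e-05). S100b, a calcium-binding protein, and Aldoc, the aldolase of astrocytes, were at -0.55 and -0.57 (-0.14 and -0.28 under cyclic loess scaling), Glul, which makes glutamine, at -0.37, and the filament protein Gfap at -0.39. All 5 members that rose encode membrane proteins, while Mlc1, another membrane protein, was at -0.30. Gja1, the gap junction protein connexin 43, stood at 217, 234, 238, 233 and 223 CPM in Control and at 357, 334, 349, 363 and 335 CPM in Maltodextrin. Its groups lay apart at a log2 change of 0.60 (SE 0.061, edgeR adjusted p = 5.12e-10). The glutamate transporters Slc1a2 and Slc1a3, the water channel Aqp4 and the thyroid hormone and organic anion transporter Slco1c1 rose by 0.56, 0.28, 0.43 and 0.48.

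Oligodendrocyte genes were also mixed, with 7 of 20 lower (35%) and 6 higher (30%), at a median of -0.11. Shares over all genes tested were 22.4% lower and 23.4% higher. Mbp, a main protein of compact myelin, stood at 8089, 8341, 7082, 6587 and 6569 CPM in Control and at 4007, 3728, 3285, 4744 and 4396 CPM in Maltodextrin. No Maltodextrin library came near the Control range, and the log2 change was -0.86 (SE 0.12, edgeR adjusted p = 2.74e-06), or -0.38 under cyclic loess scaling. Tf, the iron carrier transferrin, Qdpr and Cnp were at -0.76, -0.56 and -0.48. Mog, a surface protein of myelin, was not called, at 55.0 ± 1.8 CPM in Maltodextrin and 59.5 ± 3.71 CPM in Control. Ermn, Gpr37, Aspa, Fa2h, Ugt8 and Cldn11 rose by 0.22 to 0.55. Precursor genes moved one way where they were called: 5 of 11 rose (45.5%) and none fell (median 0.35). Pdgfra, the growth factor receptor that marks these cells, was at 31.9, 33.8, 37.9, 31.0 and 33.6 CPM in Control and at 45.2, 45.5, 48.2, 43.7 and 44.2 CPM in Maltodextrin, a log2 change of 0.43 without overlap. Ptprz1 and Bcas1 rose by 0.48 and 0.35. Cspg4, a second marker of the precursors, was not called (-0.14).

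The C1q genes and some surface proteins of microglia were lower. Of 23 tested members, 9 fell (39.1%), 2 rose (8.7%) and 12 were not called (median -0.04). Shares over all genes tested were 22.4% lower and 23.4% higher. C1qa, a chain of the complement starter C1q, stood at 218, 208, 214, 211 and 214 CPM in Control and at 115, 102, 95.4, 119 and 130 CPM in Maltodextrin. The groups were far apart, at a log2 change of -0.92 (SE 0.14, edgeR adjusted p = 7.08e-06). C1qb and C1qc, the other chains, were at -0.48 and -0.46. Trem2, a lipid-sensing receptor, and Csf1r, the receptor microglia need to survive, were at -0.70 and -0.31, and Tmem119, a surface marker, at -0.42. Cx3cr1 and P2ry12, surface receptors of resting microglia, were not called, at 15.7 ± 0.915 and 11.7 ± 1.37 CPM in Maltodextrin and 14.9 ± 2.08 and 10.4 ± 0.961 CPM in Control. Antigen presentation split within MHC class I. Its light chain B2m was at 369, 393, 412, 402 and 403 CPM in Control and at 621, 631, 545, 604 and 614 CPM in Maltodextrin, and rose by 0.61 (SE 0.053, edgeR adjusted p = 1.83e-11). The class I heavy chains RT1-A1, RT1-A2 and RT1-CE5, close copies among which counting can divide reads, were at -0.71, -0.79 and -0.38. Of the 12 tested members of the list 4 fell (33.3%) and 1 rose (8.33%), or 7 and 1 under cyclic loess scaling. Cd74, the invariant chain of class II, was not called (-0.18, edgeR adjusted p = 0.0864, and adjusted p = 0.0489 under cyclic loess scaling).

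Vessel genes were evenly divided, with 6 of 24 higher and 6 lower (median near 0). Each share was 25%, near the 23.4% higher and 22.4% lower of all genes tested. Kdr and Flt1, receptors of VEGF on endothelium, rose by 0.46 and 0.34. Flt1 stood at 80.2, 76.0, 77.0, 81.2 and 74.6 CPM in Control and at 95.7, 104, 102, 95.5 and 96.0 CPM in Maltodextrin, with no overlap. Cldn5, the tight junction protein, was at -0.38, and Bsg, a partner of lactate transporters, fell by 0.94. Among 19 tested fibroblast genes, 7 rose (36.8%) and none fell (median 0.18), or 7 and 1 under cyclic loess scaling. Among 19 collagen and basement membrane genes 9 rose (47.4%) and 1 fell (5.26%), with a median of 0.23, or 7 and 2 under cyclic loess scaling. Igf2, a growth factor of the meninges, stood at 67.1, 63.2, 66.3, 64.6 and 63.6 CPM in Control and at 102, 90.1, 79.8, 98.2 and 92.2 CPM in Maltodextrin. Its groups were apart (log2 change 0.51, SE 0.063, edgeR adjusted p = 3.63e-08). Col4a1, a collagen of the vascular basement membrane, and Col5a2 rose by 0.54 and 0.63, Mgp, an inhibitor of calcification, by 0.58, and Dcn, a matrix proteoglycan, by 0.42. Col1a1 and Slc6a13, defining fibroblast markers, were not called. Sparc, a matrix protein of endothelium and glia, was the collagen list member that fell (-0.44, or -0.19 under cyclic loess scaling). Haemoglobin Hbb, a marker of red cells, fell from 3575 ± 244 to 2628 ± 294 CPM (log2 change -0.44), a call that ended under cyclic loess scaling (-0.06, edgeR adjusted p = 0.392). The red cell enzyme Alas2 was not called (-0.05). Summed levels of the astrocyte, myelin, microglia, interneuron, general excitatory neuron, deep-layer, choroid and blood lists were lower in every Maltodextrin library than in any Control library, as was that of the vessel list (1248 to 1595 against 1919 to 2141 CPM). Those of precursor and of hippocampal genes were higher, and those of upper-layer, striatal, hypothalamic and fibroblast genes overlapped. The part of these cell type markers in the other results was not tested.

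Genes of the translation and splicing machinery held more increases than decreases. Of 71 tested cytosolic ribosomal protein genes, 30 rose (42.3%), 4 fell (5.63%) and 37 were not called (median 0.16). Under cyclic loess scaling 44 rose and none fell (median 0.30). Shares over all genes tested were 23.4% higher and 22.4% lower. Rpl30 stood at 155, 150, 148, 153 and 142 CPM in Control and at 243, 253, 201, 232 and 230 CPM in Maltodextrin. It rose by 0.63 (SE 0.057, edgeR adjusted p = 4.35e-11) without overlap, and Rpl39 and Rpl11 rose by 0.66 and 0.47. Ribosomal protein genes have many processed copies in the genome, so counts of single members are uncertain. Among 31 tested splicing factors, 15 rose (48.4%) and 5 fell (16.1%), with a median of 0.14, or 17 and 2 under cyclic loess scaling. Clk1 and Clk4, kinases that phosphorylate SR proteins, rose by 0.64 and 0.51. Clk1 was at 73.1, 84.5, 74.4, 71.0 and 82.6 CPM in Control and at 107, 128, 129, 115 and 122 CPM in Maltodextrin, with the groups apart. Srsf1 rose by 0.43, and Cirbp, a cold-induced RNA-binding protein, was at -0.69. Other increases with the smallest p came in Zcchc7, a zinc finger protein of RNA surveillance (0.96), Wsb1, a ubiquitin ligase adaptor (0.96), Trank1 (0.93), Tnpo1, a nuclear import receptor (0.70), and Tmx4, a thioredoxin-like protein of the endoplasmic reticulum (0.59).

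Several of the largest increases by size came with wide spread between the Maltodextrin libraries. Bc1, a small noncoding RNA of neuronal dendrites, stood at 9.94, 10.8, 9.35, 11.7 and 8.12 CPM in Control and at 947, 23.5, 24.3, 19.8 and 14.5 CPM in Maltodextrin. Replicate 1 stood far above the other 4, and the log2 change of 4.36 (SE 1.26, edgeR adjusted p = 0.00645) became 1.04 (adjusted p = 0.463) without it. Rn5-8s, a ribosomal RNA that exists in many gene copies, was at 0.401 to 1.50 CPM in Control and at 11.3, 27.7, 53.7, 14.2 and 7.65 CPM in Maltodextrin. Its groups did not overlap (log2 change 4.56, SE 0.74, edgeR adjusted p = 2.23e-05), and Rn45s, its precursor, rose by 1.67, or 0.80 without Maltodextrin replicate 3, a call that ended with only the groups compared in the fit (1.68, adjusted p = 0.0561). Chchd2, a mitochondrial protein gene with processed copies, was at 1.36 to 3.08 CPM in Control and at 6.88, 52.3, 41.3, 50.2 and 1.41 CPM in Maltodextrin. Its groups overlapped at a log2 change of 3.92 (edgeR adjusted p = 0.0102). Fut7, Adh6, Slfn13, Nr1h4 and Cttn were at 3.05, 2.87, 2.80, 2.42 and 1.88, with libraries that also overlapped.

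Single libraries carried some of these calls. Nr1h4, a bile acid receptor, was at 33.7 CPM in Maltodextrin replicate 3 and at 1.85 CPM or less in the other 9 libraries. Without that replicate its log2 change was -0.92 (edgeR adjusted p = 0.271), and its call also ended without Control replicate 1 (adjusted p = 0.0523) or 4 (adjusted p = 0.0558), with only the groups compared (adjusted p = 0.183) and with the replicate block (1.72, adjusted p = 0.0904). The Fut7 call was lost without Maltodextrin replicate 5 (2.14, edgeR adjusted p = 0.0607). That of Cttn, a binding protein of actin branches, ended without Control replicate 1, 4 or 5 or Maltodextrin replicate 2 or 4 (1.30 to 1.76, adjusted p from 0.0763 to 0.187), with no filter (adjusted p = 0.0546) and with the replicate block (1.80, adjusted p = 0.0548). Ackr3 had separate groups and kept its call with each library left out. Ackr3, a scavenger receptor of the chemokine CXCL12, stood at 2.40, 2.44, 3.74, 3.58 and 3.97 CPM in Control and at 13.1, 14.5, 9.12, 8.20 and 12.8 CPM in Maltodextrin. Its log2 change was 1.84 (SE 0.17, edgeR adjusted p = 4.87e-11). Sec14l3, a lipid-binding protein, rose by 1.78, from between 0.614 and 1.63 to between 1.65 and 7.25 CPM.

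MicroRNA genes, looked at after their values were seen, were counted at low levels. In these libraries their reads come from hairpins and host transcripts and do not separate the mature arms. Of 34 tested, 15 rose and 2 fell, with a median log2 change of 0.55. Over all genes tested 23.4% rose and 22.4% fell, and in the lowest 10% by level 9.68% rose and 4.71% fell. Mature sequences in RefSeq (GRCr8) were matched for 16 of the 17 called genes, and 28 arms carried 28 different seeds. Shown are arms of 5 genes that rose and kept the call with each library left out, with the seed (bases 2 to 8), which pairs with target mRNAs, in capitals.
rno-miR-384-3p: aUUCCUAGaaauuguucacaau
rno-miR-384-5p: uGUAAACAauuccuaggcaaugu
rno-miR-186-3p: gCCCAAAGgugaauuuuuugg
rno-miR-186-5p: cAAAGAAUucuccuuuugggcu
rno-miR-221-3p: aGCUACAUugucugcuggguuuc
rno-miR-221-5p: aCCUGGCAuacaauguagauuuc
rno-miR-23b-3p: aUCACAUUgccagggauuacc
rno-miR-23b-5p: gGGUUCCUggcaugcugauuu
rno-miR-3064-3p: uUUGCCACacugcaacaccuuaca
Mir384 stood at 0.481, 0.812, 1.43, 0.614 and 0.97 CPM in Control and at 2.62, 3.18, 4.39, 2.55 and 2.12 CPM in Maltodextrin. The groups did not overlap, and its log2 change was 1.81 (SE 0.29, edgeR adjusted p = 3.27e-06). Mir186, Mir221, Mir23b and Mir3064 rose by 1.35, 1.41, 1.22 and 0.89, all without overlap. Mir124-2, a copy of the gene of the main neuronal microRNA, was at 2.38 to 3.89 CPM in Control and 5.91 to 8.24 CPM in Maltodextrin (1.27). Mir22 and Mir24-2 were at -0.71 and -0.63. Calls of 6 microRNA genes ended without some single library: Mir22 without Maltodextrin replicate 2 (-0.56, edgeR adjusted p = 0.0582) and also with only the groups compared (adjusted p = 0.0531), and Mir24-2 without Control replicate 1 (-0.53) or Maltodextrin replicate 3 (-0.39, adjusted p = 0.123). Mir21 lost it without Control replicate 3 or Maltodextrin replicate 2 (adjusted p to 0.085) and Mir1896 without Control replicate 2 or 4 or Maltodextrin replicate 4 (to 0.066). The other 2 were Mir34a, without Control replicate 1, 3 or 4 or Maltodextrin replicate 3 or 5 (edgeR adjusted p to 0.124), and Mir421, without Control replicate 3 or 4 or Maltodextrin replicate 2 or 3 (to 0.137).

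The other lists are described by their counts, beside 23.4% higher and 22.4% lower of all genes tested. The shares higher and lower were 37.5% and 18.8% for clock, 30% and 10% for glucocorticoid, and 12.5% and 37.5% for sterol genes. They were 31.6% and 15.8% for fatty acid, 22.7% and 9.09% for interferon, and 26.7% and 20% for striatal genes. Of 16 core clock genes, 6 rose and 3 fell (median 0.06), with the activator Clock at 0.36 and the repressor Ciart at -0.55. Among 20 tested glucocorticoid targets 6 rose and 2 fell (3 and 2 under cyclic loess scaling). Nr3c1, the glucocorticoid receptor, rose by 0.46 and Nr3c2, the mineralocorticoid receptor, by 0.25, while Fkbp5, a sensitive target of the receptor, was not called (0.11, edgeR adjusted p = 0.344). Sterol synthesis held 9 genes lower and 3 higher of 24 (median -0.05). Acat2, the thiolase at the start of the pathway, fell from 59.7 ± 8.28 to 34.5 ± 3.98 CPM (log2 change -0.79), and Fdps and Fdft1 were at -0.35 and -0.28. Fatty acid synthesis held 6 higher and 3 lower of 19 (median 0.06), with Acly, which makes acetyl-CoA from citrate, at 0.24 and the desaturase Scd2 at 0.23 (0.59 under cyclic loess scaling). Of 22 interferon response genes 5 rose and 2 fell (median 0.08; 5 and 1 under upper-quartile scaling), with Ifit2 at 0.60. Of 15 striatal genes 4 rose and 3 fell, and of 7 hippocampal genes 2 rose. The hypothalamic and septal list had 4 tested members, of which Nts and Trpc4 rose and Oxt and Pomc fell. The Pomc call (-0.81) ended without Control replicate 4 or Maltodextrin replicate 2 or 3 (edgeR adjusted p from 0.0561 to 0.0736).

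Set beside the other 4 treatments of the same cortex, Control stood alone for some genes and Maltodextrin for others. The other 4 were Bupropion at 15 and Desipramine at 7.5 mg/kg/day, Probiotics, and FT, letters the sample labels do not spell out. Of the 2775 genes that rose, the Maltodextrin mean was the highest of all 6 groups for 882 (31.8%) and the Control mean was the lowest for 810 (29.2%). Of the 2661 that fell, Maltodextrin was the lowest for 725 (27.2%) and Control the highest for 802 (30.1%). Among all genes tested, the Maltodextrin mean lay outside the range of the other 5 groups for 26.1% and the Control mean for 27.8%. For Ttr, Control stood alone at 87.1 ± 4.94 CPM, with the other 5 groups between 27.0 and 48.6 CPM. For B2m, Maltodextrin stood alone at 603 ± 34 CPM, with the others between 307 and 428 CPM, and Arc was highest in Maltodextrin (52.5 ± 7.58 CPM) and lowest in Bupropion (6.58 CPM). Eno1 divided the groups otherwise: Control (2649 CPM) and Bupropion (3280 CPM) were high, and Maltodextrin (1076 CPM), Probiotics (1418 CPM), Desipramine (775 CPM) and FT (985 CPM) were low. Grm5 was lowest in Bupropion (29.9 CPM) and Control (45.9 CPM), and Ackr3 was highest in Maltodextrin (11.5 CPM) and Desipramine (9.63 CPM). Depth and scaling factor divided the groups as Eno1 did, with TMM factors from 0.832 to 0.974 in Bupropion and Control and from 1.00 to 1.15 in the other 4 groups. The part of depth in this was not tested, and these values are a description, with no test among the 6 groups.

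**Figure D4:**
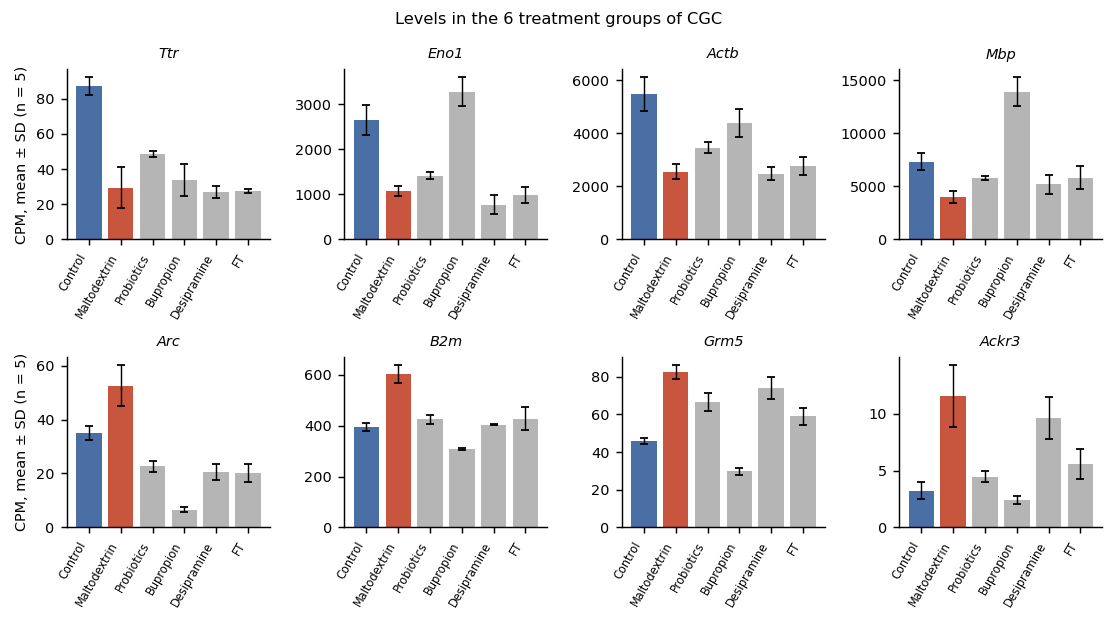
Mean level in CPM (bars, with SD from 5 libraries) of 8 genes in the 6 treatment groups of CGC, Control in blue and Maltodextrin in red. Control is highest for Ttr and Actb, Maltodextrin for Arc, B2m, Grm5 and Ackr3, and Bupropion for Eno1 and Mbp.

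PLC, letters that commonly stand for the prelimbic cortex next to the cingulate area, carries the same treatment labels and replicate numbers. The labels used here do not state whether a number marks the same rats in both regions. The models of differences between regions took it to do so. In PLC 5910 of 12109 genes (48.8%) were called between Maltodextrin and Control. The change itself differed between CGC and PLC for 4914 of 12037 genes (40.8%) in an edgeR model with the treatment replicate and the region, 2777 more positive in CGC and 2137 more negative. Ttr fell in CGC and rose by 0.65 in PLC, from 14.6 ± 2.3 to 22.8 ± 4.03 CPM, a difference of -2.24 (SE 0.13, edgeR adjusted p = 3.92e-11). Eno1 was unequal too: it was not called in PLC, with 2292 ± 174 CPM in Control and 2440 ± 224 CPM in Maltodextrin, and the difference was -1.40 (SE 0.076, edgeR adjusted p = 1.43e-15). Grifin and Scgn, a lens galectin relative and a calcium-binding protein, gave differences of -1.61 and -1.48. At the other end, Fcho1, Nckap5l, Fbxl16 and Shank1 had differences of 3.29, 3.002, 2.88 and 2.79, and their changes in PLC were -3.10, -3.26, -2.94 and -2.48. Shank1 was at 102 ± 5.07 CPM in PLC of Control and 18.4 ± 0.84 CPM in PLC of Maltodextrin, while in CGC it was at 122 and 152 CPM.

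Some genes moved in opposite directions in CGC and PLC, and those of this paragraph were looked at after their values were seen. Arc rose in CGC and fell by 1.55 in PLC, from 32.5 ± 3.86 to 11.03 ± 1.31 CPM, and the difference was 2.12 (SE 0.11, edgeR adjusted p = 7.26e-16). Npas4 fell by 0.51 in PLC (difference 1.34), Igf2 by 0.68 (difference 1.18) and Col4a1 by 0.92 (difference 1.45). Other activity-induced and matrix genes went the same way in both: Nptx2 and Egr3 also fell in PLC (-1.58 and -1.99), and Mgp and Dcn also rose there (0.34 and 0.24). Genes that fell in CGC and rose in PLC were Hspa8 (0.38 in PLC, difference -1.01), Pcp4 (0.40, difference -0.80), Crym (0.23, difference -0.74) and Pvalb (0.17, difference -0.60). Syn1, a vesicle protein that binds actin, fell in both but further in PLC (-1.88), with a difference of 1.33. Sst fell in both regions (-0.58 in PLC), and its difference of -0.19 was not called (SE 0.24, edgeR adjusted p = 0.575).

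**Figure D5:**
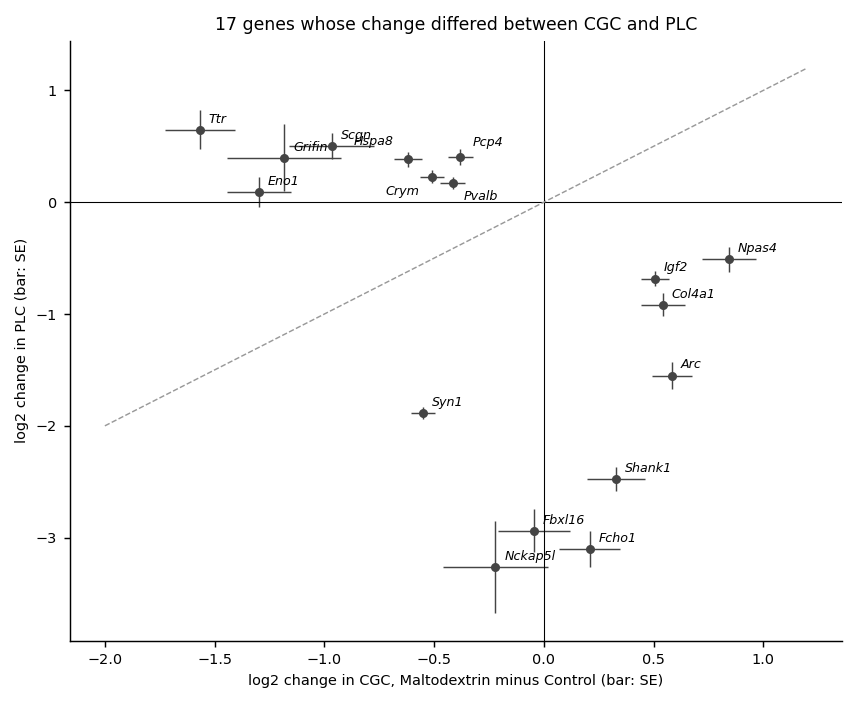
Log2 change between Maltodextrin and Control in CGC (horizontal axis) and in PLC (vertical axis) for 17 genes whose change differed between the regions, with bars for SE; on the dashed line both changes are equal. Ttr sits at -1.57 and 0.65, Arc at 0.58 and -1.55, and Fcho1, Fbxl16, Shank1 and Nckap5l between -0.22 and 0.33 in CGC and between -2.48 and -3.26 in PLC.

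Against the mean change in mPOA, NACShell, PLC and Raphe, the change in CGC differed for 3723 of 12651 genes (29.4%), 1993 more positive and 1730 more negative. Ttr gave the most negative difference among the genes named (-2.57, SE 0.11, edgeR adjusted p = 8e-21), ahead of Ccdc42 (-1.70), Bhmt, an enzyme of methionine synthesis (-1.24), and Grifin (-1.22). Rn5-8s gave the most positive (3.503, SE 0.61, edgeR adjusted p = 3.39e-05). Chchd2 (3.29), Adgrg7 (2.93) and Olr1266 (2.93) followed with adjusted p of 0.0451, 0.038 and 0.0237 in edgeR. In CGC alone, Adgrg7 (2.40, edgeR adjusted p = 0.0906) and Olr1266 (2.36, adjusted p = 0.115) were not called. The calls of these differences were lost with several single libraries left out: Chchd2 without any Control replicate or Maltodextrin replicate 3 or 4, Adgrg7 without Control replicate 1, 2, 4 or 5 or Maltodextrin replicate 1, 2 or 4, and Olr1266 without Control replicate 1 or Maltodextrin replicate 1, 2 or 4. The adjusted p then ran from 0.0502 to 0.122, and the Chchd2 call also ended with no filter (adjusted p = 0.0554). Ackr3 (1.58), Gja1 (0.60) and Grm5 (0.67) differed from the other 4 regions in the same direction as they rose in CGC.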

How the data were processed

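The deposited table held raw read counts, whole numbers per gene symbol that the authors had not normalised (17337 symbols, 300 columns, 0 of them unmatched to a labelled sample). The submitters' processing notes name FastQC, STAR, HTSeq and the build rn6, without versions, and the sources used here do not state the strand setting of the counting. Per the labels' protocols, libraries came from a stranded total RNA kit.

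One edgeR model (4.0.16, under R 4.3.3) took all 30 CGC libraries, with TMM scaling, the filterByExpr filter, a robust quasi-likelihood fit and Benjamini-Hochberg adjustment over all genes tested. SE is the absolute log2 change divided by the square root of F. Differences between regions were contrasts of a fit with treatment replicate and region. DESeq2 (1.42.0) and limma (3.58.1, cyclic loess) served as alternatives. The models were also run on simulated counts with planted changes, the same spread for every gene and the real library totals. That simulation held no composition difference or trend with level between the groups, so it cannot speak to those. Of 20 pairs of libraries within the groups compared, none were repeats (lowest chi-square per degree of freedom 2.23). Maltodextrin replicate 3 lay apart as a whole library, with values of 6.19 to 9.27 in its pairs. The other Maltodextrin pairs gave 2.35 to 4.65, and the highest Control pair 6.9. Replicate 3 also had the highest TMM factor (1.148) and the lowest share of the 50 most counted genes (14.41%) of its group.

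Members, gene lists and named genes were chosen with earlier results of these data known. The naming rule took, among called genes with a mean log2 CPM over 1 and an ordinary symbol, the 10 highest and 10 lowest log2 changes, the 6 smallest p in each direction, up to 3 called members per list by p, 12 fixed genes, and the 4 highest and 4 lowest differences between regions. Other genes were chosen after their values were seen. Values of several named genes are not reported here. Precision rests on 5 libraries per group.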

Additional observations from a re-analysis of the deposited data

Results flagged for a closer look

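In single genes, 26 of 340 groups of 5 libraries had 1 library far from the other 4, with a gap over 0.71 of the group's range; chance flags about 1 in 20 groups. Maltodextrin replicate 3 was the library apart for Bhlhe22 (26.3 CPM), Fam107a (604), Hbb-b1 (171), Htr2c (29.4), Nr1h4 (33.7), Qdpr (192), Rn45s (18.2), Scd2 (2147), Syn1 (346), Trank1 (67.1) and Vamp2 (1060 CPM). Other Maltodextrin libraries apart were replicate 1 for Bc1 (947 CPM), replicate 2 for Bhmt (3.18) and Tle4 (51.9), replicate 4 for Cd3e (0.94) and replicate 5 for Mir331 (1.18 CPM). In Control, replicate 2 was apart for Clock (87.4 CPM), Col4a1 (13.7), Mir22 (18.9) and Tnpo1 (38.1), replicate 3 for Ifit2 (6.6), Sdhb (349) and Syp (120), replicate 5 for Hbb (3143), replicate 1 for Tf (430) and replicate 4 for RT1-A2 (30.7 CPM).

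The change between Maltodextrin and Control differed between CGC and PLC, by edgeR's test of the difference itself, for Arc (2.12), Col4a1 (1.45), Crym (-0.74), Eno1 (-1.40), Fbxl16 (2.88), Fcho1 (3.29), Grifin (-1.61), Hspa8 (-1.01), Igf2 (1.18), Nckap5l (3.002), Npas4 (1.34), Pcp4 (-0.80), Pvalb (-0.60), Scgn (-1.48), Shank1 (2.79), Syn1 (1.33) and Ttr (-2.24, all log2). Against the mean of mPOA, NACShell, PLC and Raphe it differed for Adgrg7 (2.93), Bhmt (-1.24), Ccdc42 (-1.70), Chchd2 (3.29), Grifin (-1.22), Olr1266 (2.93), Rn5-8s (3.503) and Ttr (-2.57).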

How the results depend on the processing

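The count of called genes changed by more than 1.5 times under 1 alternative, the test for a change over 1.2-fold, with 1855 called, 904 higher and 951 lower. Left out one at a time, the 10 libraries gave from 4903 to 5232 called genes (2506 to 2656 higher, 2370 to 2576 lower), and from 87.2 to 92.3% of the calls remained in the same direction. The fewest remained without Maltodextrin replicate 3. RLE size factors, upper-quartile scaling, DESeq2, no filter, a mean of 1 CPM or more, and only the groups compared gave 5340 to 6032. Cyclic loess scaling, chosen after seeing the data, gave 5422, with 90.5% of calls kept. The replicate block gave 5455, and leaving out Desipramine replicate 1, with 841455 total counts, gave 5469. Same-numbered libraries of the 2 groups deviated with correlations from -0.11 to 0.11, so the numbers do not pair them. Differences between CGC and PLC gave 3917 with DESeq2 and 4735 with no replicate block, and those against 4 regions 3588 with no replicate block; leaving out each library in turn gave 4489 to 4886 and 3284 to 3545. Of 160 named calls in CGC, 17 ended without some single library and 8 under another setting, 3 of which no single library ended (Rn45s, Hbb and Lamp5); Nr1h4 ranged from -0.92 (without Maltodextrin replicate 3, a reversal) to 2.73 (without Maltodextrin replicate 2). None of the 170 named genes changed sign under RLE, upper-quartile, DESeq2 or cyclic loess scaling. Depth was lower in Maltodextrin, so genes near 1 CPM are the least precise there.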

Other observations

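The number of genes called between Maltodextrin and Control varied by region. In dorDG 85 genes were higher and 44 lower of 11929 tested, and in ILC 4280 were higher and 4017 lower of 12228, against 2775 and 2661 in CGC. Differences in these counts between regions were not tested. Neither dorDG nor ILC was among the regions set beside CGC above, which were mPOA, NACShell, PLC and Raphe. Whether the dorDG and ILC libraries carried the markers of their labelled region is not reported here. Their counts are therefore counts between labels, and the part of maltodextrin in them was not tested.

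Promoter base composition was similar for called genes. Sequences were matched for 80.8% of the tested genes, through symbols or older names. The median G+C content of the 300-base promoters was 62.0% for genes that rose, 60.7% for genes that fell and 60.7% for genes not called.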
